A study of Caenorhabditis elegans with 6 samples.

Results

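Fatty acids are broken down in Caenorhabditis elegans in mitochondria and in peroxisomes. The 60 genes described here were taken by their symbols from the 20189 protein-coding genes of the count table. They are the acs and acdh genes, the acox and ech genes, the cpt genes, and daf-22, maoc-1 and dhs-28. By step they are 21 acyl-CoA synthetases, 6 carnitine palmitoyltransferases, 13 acyl-CoA dehydrogenases, 10 enoyl-CoA hydratases, 7 acyl-CoA oxidases and 3 genes of the later peroxisomal steps. By enzyme class and known role, 23 were placed in mitochondria and 10 in peroxisomes, and 27 synthetases and hydratases were given no compartment. The placing rests on enzyme class and not on a measured location.

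Footprints, the mRNA stretches that ribosomes protect from digestion, were counted in 6 libraries from whole hermaphrodites at the L4 larval stage. In the CHX group, 3 libraries came from animals grown from synchronized eggs on plates with cycloheximide, a drug that blocks translation elongation, at 500 µg/ml for 3 days. In the no CHX group, 3 libraries came from animals grown without it for 2 days. All animals were kept at 23 °C and were heterozygotes with 1 copy of rpl-36A(P55Q), a change in a large-subunit ribosomal protein that makes ribosomes resistant to the drug, over the balancer chromosome mIn1. Drug and culture time cannot be told apart, and the counts do not separate the mutant copy from the balancer copy. The labels do not say whether the 3 libraries of a group came from independent cultures, and the p-values below rest on the spread among them, which may be technical. A footprint count rises with the amount of an mRNA and with its translation, and the libraries do not tell these apart.

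An acyl-CoA synthetase first joins a fatty acid to coenzyme A. Carnitine palmitoyltransferases then carry long chains into the mitochondrion, where a dehydrogenase, a hydratase, a second dehydrogenase and a thiolase shorten the chain by one acetyl unit per round. Peroxisomes run the same chemistry with an oxidase in the first step, and in worms this route trims the side chains of the ascaroside pheromones. Some enzymes of these families also break down branched amino acids and propionate. Much of this metabolism takes place in the worm intestine, which also stores fat.

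Depth ran from 1601009 to 1901815 reads per library, and levels below are in CPM, reads scaled to a common library size with TMM factors. These are not divided by coding length, so levels of different genes are not compared. The mutated gene, listed as rpl-36.A, had 586, 719 and 668 CPM in CHX replicates 1 to 3, against 911, 879 and 1006 CPM in no CHX replicates 1 to 3. Each intestinal, muscle, neuronal and epidermal marker gene in the table had reads. All 10 oocyte and eggshell markers were higher with CHX, with summed levels of 4099 to 4661 CPM in CHX libraries and 222 to 422 CPM in no CHX libraries. Of 9 intestinal markers 6 fell and 0 rose (edgeR, 0 higher at an unadjusted p under 0.05, and 0 rose with DESeq2 or limma-voom), with a median log2 fold change of -0.45 and summed levels of 3030 to 3907 CPM in CHX libraries and 3885 to 4744 CPM in no CHX libraries. Body wall muscle markers fell in 5 of 6 cases, with a median of -0.47 and summed levels of 9254 to 10165 CPM in CHX libraries and 12288 to 13408 CPM in no CHX libraries. Sperm markers fell in 5 of 8 tested cases (median -0.98). Of 7 neuronal markers 2 rose. In whole animals fewer cells of a type and less RNA per cell cannot be told apart. No CHX replicate 3 lay apart from no CHX replicate 1 on the second principal component (scores 27.7 and -21.4, with 8.77% of the variance).

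Footprints on fatty acid oxidation genes were more often lower than higher with CHX. Of the 60 members 58 passed the filter on low counts, and of these 28 fell, 10 rose and 20 did not pass the test (edgeR's quasi-likelihood test at 0.05 after Benjamini-Hochberg adjustment over 10632 genes). Over all tested genes 20.0% fell and 22.2% rose, 42.2% together, beside 48.3% and 17.2% of the tested members; the share that rose is near that over all genes, and the differences were not tested. The median log2 fold change of CHX over no CHX was -0.39 for the members, beside 0.03 over all tested genes. Where a value opens a parenthesis after the CPM of a gene, it is this log2 fold change. At least 2-fold changes were called for 9 fallers and 5 risers among the members, against 4.78% and 9.54% of all tested genes. In 39 of the 58 the groups did not overlap, against 52.5% of all tested genes. The filter was passed in all 6 libraries by 53 members. The genes acdh-2 and acox-1.2 passed it in no CHX libraries only and acs-3 in CHX libraries only, while acs-21 and ech-9 passed in 3 CHX libraries and 1 no CHX library, so counts over tested members carry that selection. The falls of the members stand beside those of the intestinal, body wall muscle and sperm markers, whose part in them was not tested.

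**Figure D1:**
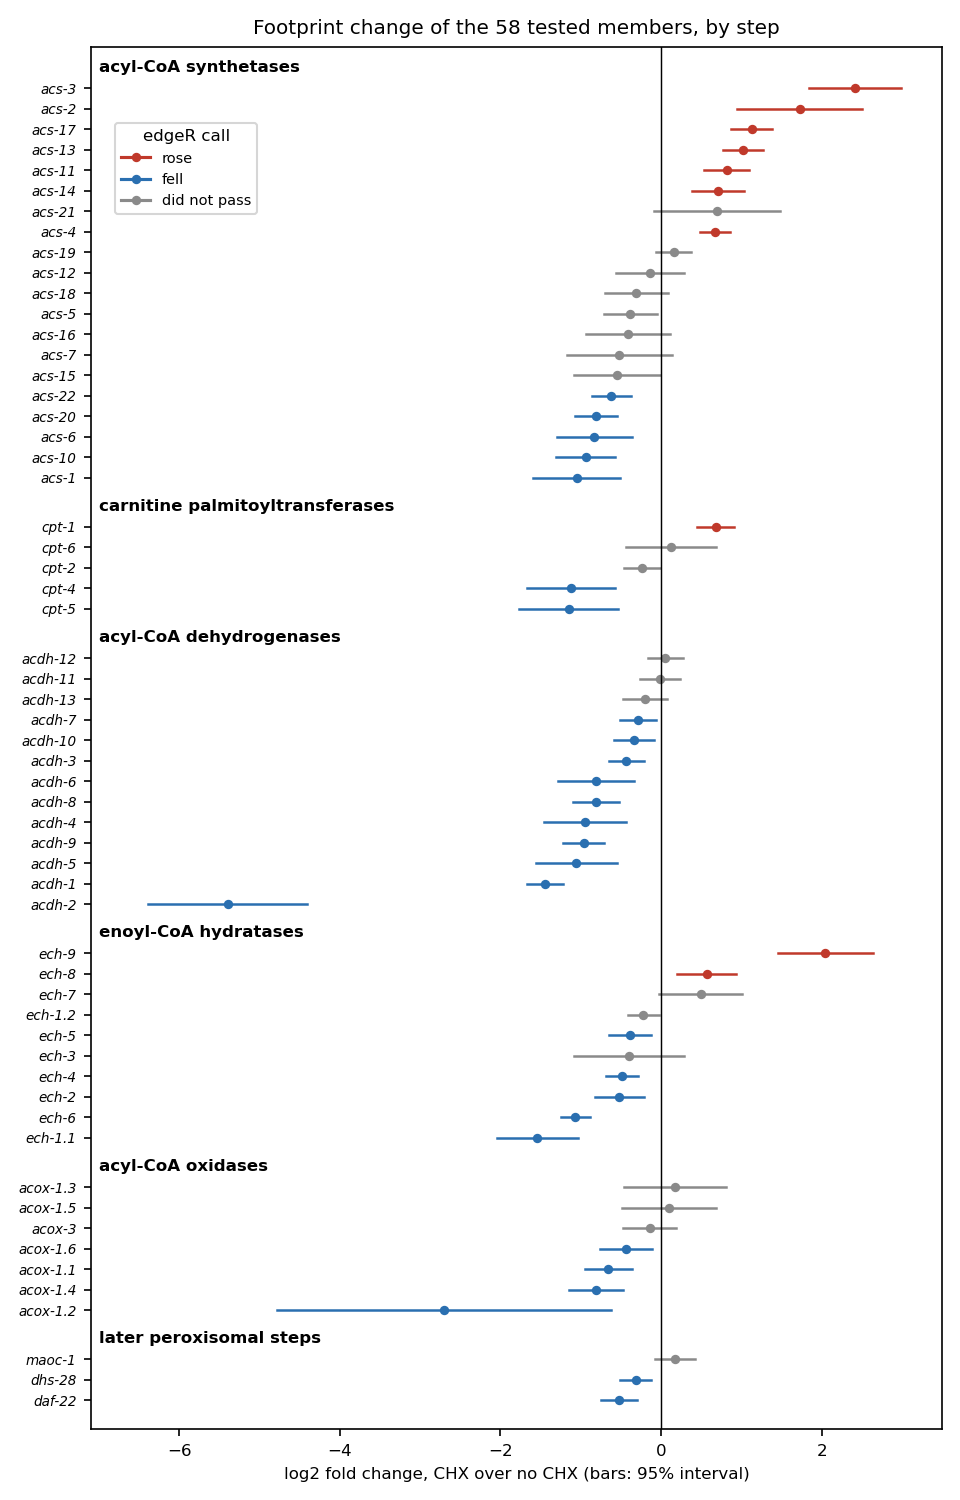
Log2 fold change of CHX over no CHX for each tested gene, grouped by step, with points for the edgeR estimate and bars for its 95% interval; red marks genes that rose, blue those that fell and grey those that did not pass. The acyl-CoA dehydrogenases lie at or left of zero apart from acdh-12 at 0.05, acdh-2 stands far to the left at -5.40, and the acyl-CoA synthetases spread from -1.05 to 2.42.

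Reads on the members made up 0.770%, 0.797% and 0.782% of all reads in the CHX libraries and 1.01%, 1.03% and 0.940% in the no CHX libraries. Most of that difference lay in acdh-1 and ech-6, which together took 0.144%, 0.163% and 0.139% of reads with CHX and 0.362%, 0.356% and 0.329% without it. The other 58 members held 0.634% ± 0.00891 of reads with CHX and 0.644% ± 0.0313 without it (SD, n = 3 each), and the groups overlapped. In CPM they summed to 6081, 6321 and 6403 in CHX replicates 1 to 3, against 6708, 6886 and 6329 in no CHX replicates 1 to 3. On that scale only CHX replicate 3 lay above a no CHX library, which was no CHX replicate 3. Within these sums rises in some members stood against falls in others.

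The acyl-CoA synthetases, which activate fatty acids, went in both directions. Of 20 tested, 7 rose and 5 fell. Both directions were also common over all tested genes, of which 22.2% rose and 20.0% fell. The differences from these shares were not tested. The largest rise was that of acs-3 (WBGene00020343, WBcel235 chromosome V, 1969528 to 1974514), a long-chain synthetase that acts in the epidermis together with the nuclear receptor NHR-25. It had 30.7, 31.8 and 23.6 CPM with CHX, against 5.71, 5.72 and 4.49 CPM without it, and the log2 fold change was 2.42 (SE 0.271, edgeR adjusted p = 2.0e-06). Every CHX library was at least 4 times the highest no CHX library, although the no CHX level rests on 27 reads in all.

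The gene acs-2 (WBGene00009221, chromosome V, 15567394 to 15569889) encodes a mitochondrial synthetase that is induced by fasting through the nuclear receptor NHR-49. It had 196, 220.4 and 258 CPM with CHX, against 66.6, 39.4 and 97.1 CPM without it, a log2 difference of 1.73 (SE 0.312, adjusted p = 0.00679 with edgeR). All CHX libraries lay above all no CHX libraries, yet the no CHX libraries differed among themselves by up to 2.44-fold. Leaving out single libraries or changing the method gave estimates from 1.397 to 2.05 without ending the call.

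The other synthetases that rose were less changed. The gene acs-17 had 119, 125 and 126 CPM with CHX, against 57.1, 53.7 and 58.4 CPM without it (1.13, edgeR adjusted p = 1.2e-06). For acs-13 the levels were 359.9, 379.8 and 362 CPM with CHX, against 199, 200.1 and 144 CPM without it (1.02, edgeR adjusted p = 2.9e-06). Both were about 2-fold higher, with no overlap between groups. The gene acs-11 had 154, 201 and 151 CPM with CHX, against 83.7, 96.0 and 107 CPM without it (0.82, edgeR adjusted p = 0.000111). For acs-14 there were 176, 227 and 229 CPM with CHX, against 158, 126 and 103 CPM without it (0.71, edgeR adjusted p = 0.0021). The synthetase with the most reads, acs-4, had 554, 587 and 589 CPM with CHX, against 356, 367 and 360.3 CPM without it (0.67, edgeR adjusted p = 1.1e-05), and its libraries differed little within each group.

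**Figure D2:**
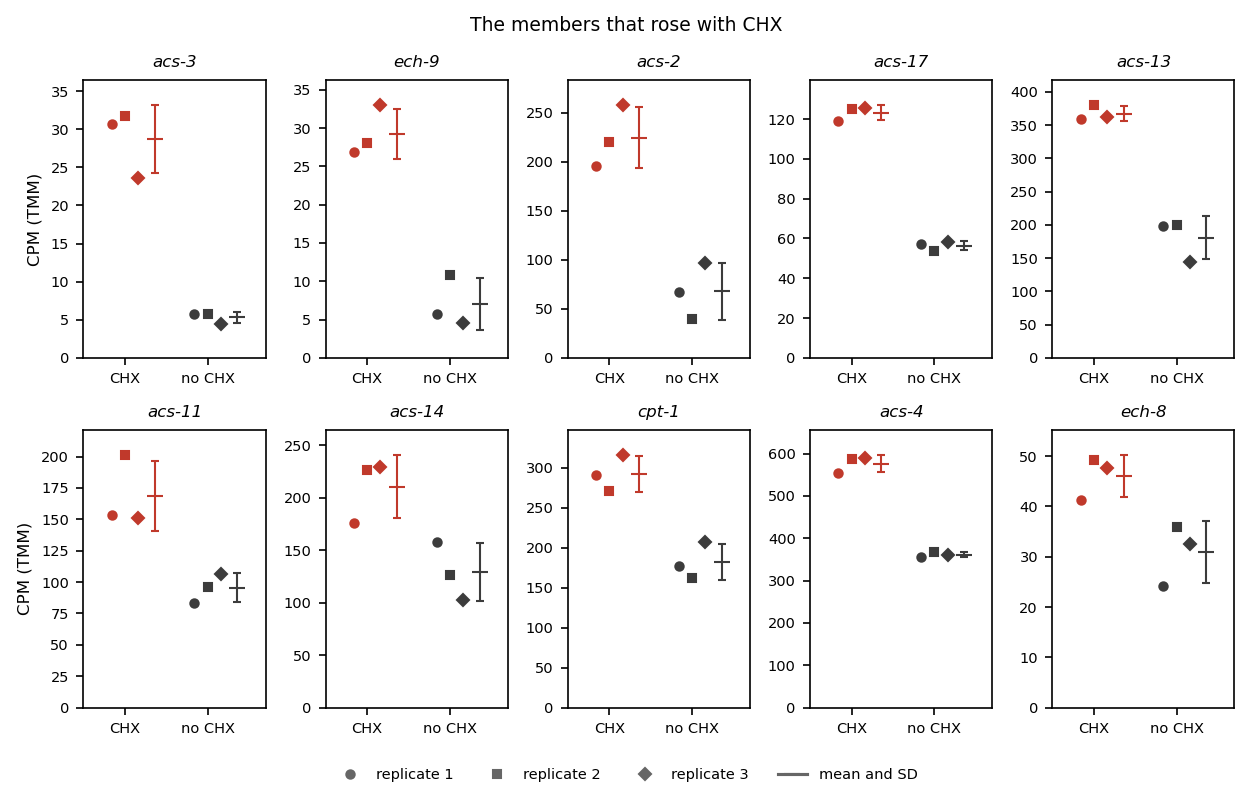
CPM of the 10 genes that rose, with 1 point per library (circle, square and diamond for replicates 1 to 3), CHX in red left of no CHX in black, and bars for the mean and SD. In each of the 10 panels the lowest CHX library lies above the highest no CHX library, with the smallest ratio for acs-14 (176 against 158 CPM).

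Falls among the synthetases were led by acs-1, which activates branched-chain fatty acids that worms need for early development. It had 194, 227 and 154 CPM with CHX, against 423, 484 and 286 CPM without it (-1.05, SE 0.225, edgeR adjusted p = 0.00912), and no CHX replicate 3 was the lowest of its group. The fatty acid transport protein relatives acs-20 and acs-22 help build the lipid barrier of the cuticle. For acs-20 there were 103, 80.3 and 83.7 CPM with CHX, against 145, 158 and 166 CPM without it (-0.81, edgeR adjusted p = 5.3e-05). For acs-22 there were 109, 106 and 113.6 CPM with CHX, against 148, 169 and 188 CPM without it (-0.62, edgeR adjusted p = 0.000374). Both fell without overlap. The gene acs-10 had 28.5, 22.4 and 21.98 CPM with CHX, against 40.6, 49.7 and 49.4 CPM without it (-0.94, edgeR adjusted p = 0.00034). The weakly read acs-6 had 16.8, 13.1 and 16.7 CPM with CHX, against 29.8, 22.3 and 31.4 CPM without it (-0.83, edgeR adjusted p = 0.00572).

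The 8 synthetases that did not pass ranged from -0.55 (acs-15) to 0.70 (acs-21). The acetyl-CoA synthetase gene acs-19 had a log2 fold change of 0.16 (95% interval -0.07 to 0.38), so a change larger than about 0.4 on this scale lay outside its interval. The call of 3 of the 8 depended on no CHX replicate 3. Without that library acs-5, a long-chain synthetase gene, fell (-0.60, edgeR adjusted p = 1.35e-04, against -0.39 with all libraries), and so did acs-7 (-0.80, edgeR adjusted p = 0.00144, against -0.52), whose enzyme activates ascaroside side chains. In the same setting acs-21 rose (1.11, edgeR adjusted p = 0.04). The gene acs-9 was not tested, since it had only 16 reads with CHX and 17 without it.

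The carnitine palmitoyltransferases also divided. The gene cpt-1 (WBGene00012907, chromosome II, 12788252 to 12796452) encodes the outer-membrane enzyme that makes the acylcarnitine for import. It had 291, 271 and 316 CPM with CHX, against 178, 162 and 207 CPM without it, a log2 difference of 0.68 (SE 0.111, adjusted p = 9.6e-05 with edgeR), with no overlap. Its partner on the inner membrane, cpt-2, had 159, 160.0 and 178 CPM with CHX, against 177, 205 and 205 CPM without it and did not pass (-0.24, 95% interval -0.47 to -0.01, edgeR adjusted p = 0.0827), although it fell once no CHX replicate 1 was left out (-0.34, edgeR adjusted p = 0.0283).

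The less-read family members cpt-4 and cpt-5 fell. For cpt-4 there were 13.4, 12.5 and 15.2 CPM with CHX, against 22.2, 24.6 and 42.7 CPM without it (-1.12, edgeR adjusted p = 0.00233). The gene cpt-5 had 7.82, 19.3 and 12.6 CPM with CHX, against 33.6, 33.2 and 20.8 CPM without it (-1.15, edgeR adjusted p = 0.00488). In both the groups stood apart, and in cpt-5 only narrowly, at 19.3 CPM in CHX replicate 2 against 20.8 CPM in no CHX replicate 3. The gene cpt-6 did not pass (0.13, 95% interval -0.43 to 0.69). The gene cpt-3 was below the filter, at 29 reads with CHX and 2 without it, and the ratio of scaled reads was 13.96 (95% interval by counting 3.53 to 121). Such intervals cover counting error alone.

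The acyl-CoA dehydrogenases, which take the first oxidation step in mitochondria, moved one way. Of 13 tested, 10 fell and 0 rose (edgeR, with 0 higher at an unadjusted p under 0.05, and 0 rose with DESeq2 or limma-voom), and their median was -0.81. The share that fell was 76.9%, beside 20.0% of all tested genes. The largest change of any member was in acdh-2 (WBGene00015894, chromosome II, 5544781 to 5547490). It had 0, 2 and 1 reads in CHX replicates 1 to 3, against 48, 37 and 52 reads in no CHX replicates 1 to 3. Over the groups that is 3 reads against 137, or 47.4 times as many without CHX per scaled read (95% counting interval 15.9 to 233). The fitted log2 fold change was -5.40 (edgeR adjusted p = 1.1e-07), a size that depends on the prior count because so few CHX reads remain.

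The member with the most reads was acdh-1 (WBGene00016943, chromosome I, 6497436 to 6499560), a short-chain dehydrogenase that opens the propionate shunt, a side route described further on. It had 796, 956 and 739 CPM with CHX, against 2423, 2329.7 and 2031 CPM without it, and the mean was 830.2 ± 112 CPM with CHX and 2261 ± 205 CPM without it (SD, n = 3 each). The log2 fold change was -1.45 (SE 0.106, edgeR adjusted p = 1.3e-08), and the highest CHX library lay far below the lowest no CHX library.

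The remaining fallers were smaller in size. The gene acdh-5 had 12.9, 16.2 and 8.90 CPM with CHX, against 24.1, 28.01 and 25.8 CPM without it (-1.05, edgeR adjusted p = 0.0019). For acdh-9 there were 93.9, 112 and 103 CPM with CHX, against 229.6, 195 and 177 CPM without it (-0.96, edgeR adjusted p = 7.5e-06). The gene acdh-4 had 9.50, 10.6 and 12.04 CPM with CHX, against 20.3, 23.4 and 18.5 CPM without it (-0.95, edgeR adjusted p = 0.00456). These 3 stood near 0.5 times the no CHX level. By genomic span, introns included, acdh-4 overlaps F57B10.8 on the same strand, and reads may be shared. The gene F57B10.8 had 116 reads with CHX and 259 without it, more than acdh-4 itself. For acdh-8 the levels were 89.4, 62.9 and 64.9 CPM with CHX, against 126, 123 and 132 CPM without it (-0.81, edgeR adjusted p = 0.000149). The gene acdh-6 had 58.7, 35.5 and 28.8 CPM with CHX, against 66.6, 69.7 and 78.6 CPM without it (-0.81, edgeR adjusted p = 0.00994), with CHX replicate 1 close to the no CHX libraries, and leaving out no CHX replicate 3 ended the call (edgeR adjusted p = 0.0541). The gene acdh-3 had 194, 205 and 208 CPM with CHX, against 296, 241 and 286 CPM without it (-0.43, edgeR adjusted p = 0.0029).

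The other dehydrogenase genes had small falls or none. Among these, acdh-7 and acdh-10 are medium-chain genes. For acdh-7 there were 132, 122 and 118 CPM with CHX, against 149.7, 154 and 149 CPM without it (-0.28, edgeR adjusted p = 0.0417). For acdh-10 there were 178, 160.0 and 186 CPM with CHX, against 195, 260.1 and 208 CPM without it (-0.34, edgeR adjusted p = 0.0295). The acdh-7 call ended with DESeq2 (adjusted p = 0.112), without CHX replicate 2 (0.108) or 3 (0.142) and without no CHX replicate 2 (0.0585). The acdh-10 call ended with DESeq2 (adjusted p = 0.0598), without CHX replicate 1 (0.0542) or 2 (0.121) and without no CHX replicate 2 (0.11). Neither fall held in all settings. The very-long-chain gene acdh-12 had 284, 271 and 279.5 CPM with CHX, against 244, 304 and 256 CPM without it (0.05, 95% interval -0.16 to 0.27). The gene acdh-11, which restrains fatty acid desaturation in worms grown warm, had 97.2, 108 and 115 CPM with CHX, against 101, 107 and 113.9 CPM without it (-0.01, 95% interval -0.26 to 0.24), and acdh-13 did not pass (-0.20). For acdh-11 and acdh-12 the groups overlapped, and falls of the size of acdh-1 lay outside the intervals of these 3 genes.

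Of the 10 enoyl-CoA hydratases, which add water to the double bond in the next step, 5 fell and 2 rose. These shares were 50.0% and 20.0%, beside 20.0% and 22.2% of all tested genes. The gene ech-6 (WBGene00001155, chromosome III, 9751440 to 9752922) encodes the mitochondrial short-chain hydratase. It had 605, 665 and 645 CPM with CHX, against 1343, 1303 and 1367 CPM without it, with means of 638 ± 30.4 CPM with CHX and 1338 ± 32.1 CPM without it (SD, n = 3 each). The log2 fold change was -1.07 (SE 0.087, edgeR adjusted p = 4.7e-08), and the libraries of each group lay close together.

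The genes ech-1.1 and ech-1.2 encode alpha subunits of the trifunctional protein, which joins hydratase and dehydrogenase on long chains. Only ech-1.1 passed the test. It had 8.38, 9.34 and 10.99 CPM with CHX, against 24.1, 26.9 and 33.1 CPM without it (-1.54, 95% interval -2.05 to -1.04, edgeR adjusted p = 6.5e-05). The gene ech-1.2, on which most reads of the pair lay, had 373, 421 and 379 CPM with CHX, against 459, 449 and 457 CPM without it and did not pass (-0.22, 95% interval -0.41 to -0.03, edgeR adjusted p = 0.0622). A fall was called when no CHX replicate 2 (-0.28, edgeR adjusted p = 0.044) or no CHX replicate 3 (-0.26, 0.0436) was left out. The 95% intervals of the pair did not overlap, and their difference itself was not tested.

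Smaller falls were found in ech-2, ech-4 and ech-5. For ech-2 there were 40.8, 39.2 and 39.8 CPM with CHX, against 53.9, 64.02 and 53.9 CPM without it (-0.52, edgeR adjusted p = 0.00797). The gene ech-4 had 181, 179.9 and 178 CPM with CHX, against 252, 250.3 and 254 CPM without it (-0.49, edgeR adjusted p = 0.000557). For ech-5 the levels were 84.4, 87.2 and 98.9 CPM with CHX, against 103, 119 and 131 CPM without it (-0.39, edgeR adjusted p = 0.0194). None of these overlapped between groups, but the ech-5 call ended with DESeq2 (adjusted p = 0.0554), without CHX replicate 1 (adjusted p = 0.0711) and without CHX replicate 2 (adjusted p = 0.0615). Reads of ech-2 may be shared with tag-30, which overlaps it on the same strand.

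The risers ech-9 and ech-8 are neighbours on chromosome IV, both on the minus strand and 1296 bases apart. The gene ech-9 (WBGene00001158, 10233321 to 10235329) had 26.8, 28.02 and 33.0 CPM with CHX, against 5.71, 10.9 and 4.49 CPM without it, a log2 difference of 2.05 (SE 0.283, adjusted p = 1.9e-05 with edgeR). The gene ech-8 had 41.3, 49.2 and 47.6 CPM with CHX, against 24.1, 36.01 and 32.6 CPM without it (0.57, edgeR adjusted p = 0.0139). The rise of ech-9 was called under each of the 14 alternatives (lowest 1.75), while that of ech-8 ended with DESeq2 (adjusted p = 0.0782) and without no CHX replicate 1 (adjusted p = 0.0981). The genes ech-3 and ech-7 did not pass (-0.40 and 0.50).

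The members acdh-1 and ech-6 catalyse the first 2 steps of the propionate shunt, in which worms oxidise propionate in mitochondria when vitamin B12, the cofactor of the canonical route, is scarce. All 5 enzymes of the shunt fell, beside 20.0% of all tested genes. The third enzyme, the hydrolase hach-1, had 134, 158 and 140.3 CPM with CHX, against 356, 325 and 363 CPM without it (-1.28, edgeR adjusted p = 4.7e-08). The fourth, the dehydrogenase hphd-1, had 504, 534 and 449 CPM with CHX, against 1103, 971 and 1027 CPM without it (-1.06, edgeR adjusted p = 1.6e-07). The last, the aldehyde dehydrogenase alh-8, had 451, 448 and 414 CPM with CHX, against 863, 824 and 723 CPM without it (-0.88, edgeR adjusted p = 1.5e-06). Along the route the log2 fold changes were thus -1.45, -1.07, -1.28, -1.06 and -0.88, and in each of the 5 the groups stood far apart. Summed over the 5 genes, levels were 2490.4, 2760.0 and 2386 CPM in CHX replicates 1 to 3, against 6087, 5752 and 5511 CPM in no CHX replicates 1 to 3. The calls of the 5 held under each alternative that kept the gene, while acdh-1 is among the 100 most abundant genes and was not tested when these were left out.

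**Figure D3:**
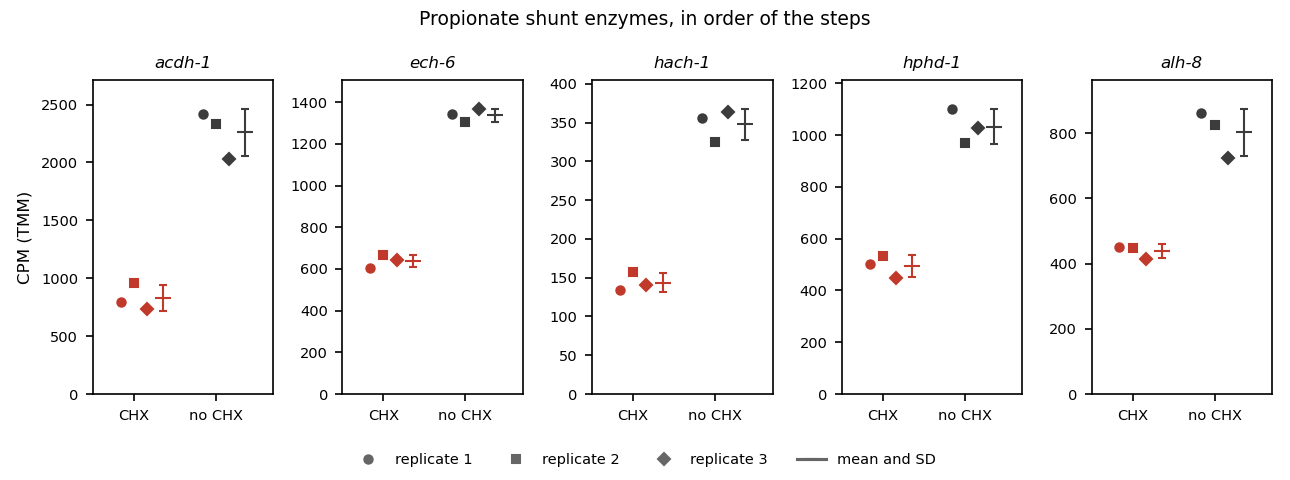
CPM of the 5 propionate shunt genes in the order of their steps, with 1 point per library, CHX in red left of no CHX in black, and bars for the mean and SD. In each panel the highest CHX library lies well below the lowest no CHX library, as for acdh-1 with 956 against 2031 CPM.

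The canonical route for propionate, which needs vitamin B12, gave no call. Of its 5 genes pcca-1, pccb-1, mce-1, mmcm-1 and mmaa-1, 0 rose and 0 fell (edgeR, 0 at an unadjusted p under 0.05, 0 with DESeq2 and 0 with limma-voom). Their log2 fold changes ran from -0.20 to 0.21 with 95% intervals within -0.48 and 0.52, so falls of the size seen in any shunt gene lay outside them. The propionyl-CoA carboxylase gene pcca-1 had 263, 289 and 272.2 CPM with CHX, against 316, 306 and 287 CPM without it (-0.14). Summed over the 5 genes, levels were 939 to 999 CPM in CHX libraries and 936 to 1024 CPM in no CHX libraries and overlapped. The nuclear receptor genes nhr-10 and nhr-68, which switch the shunt on when propionate builds up, did not pass (0.05, 95% interval -0.30 to 0.40, and -0.11, 95% interval -0.35 to 0.13).

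Partners of the mitochondrial spiral outside these families mostly fell. Of 13 genes on that list, 9 fell and 1 rose (median -0.45). Over all tested genes 20.0% fell and 22.2% rose (median 0.03), and the differences were not tested. Here F27D4.1, named etfa-1 by RefSeq for the electron transfer flavoprotein that takes electrons from the acyl-CoA dehydrogenases, had 329.7, 329 and 334 CPM with CHX, against 505, 505 and 553 CPM without it (-0.65, edgeR adjusted p = 1.9e-05). The gene B0272.3 had 122, 116 and 122 CPM with CHX, against 197, 190.3 and 199 CPM without it (-0.70, edgeR adjusted p = 3.8e-05). The dienoyl-CoA reductase relatives decr-1.1 and decr-1.3, a family that clears double bonds of unsaturated fatty acids, went opposite ways. For decr-1.1 there were 63.7, 67.2 and 79.0 CPM with CHX, against 30.4, 21.7 and 25.8 CPM without it (1.43, edgeR adjusted p = 2.7e-06). For decr-1.3 there were 9.50, 3.11 and 7.33 CPM with CHX, against 36.2, 21.1 and 37.6 CPM without it (-2.21, edgeR adjusted p = 7.1e-05). The groups overlapped in neither gene.

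Over the 22 mitochondrial members tested, 14 fell and 2 rose (acs-2 and cpt-1), and the median was -0.62. As shares these were 63.6% and 9.09%, beside 20.0% and 22.2% of all tested genes. The median lies between the values of acdh-6 (-0.81) and acdh-3 (-0.43), and it was -0.45 without a filter on low counts. By reads, most of the difference of the mitochondrial members lay on acdh-1 and ech-6. The 21 mitochondrial members apart from acdh-1 and ech-6 held 0.235%, 0.232% and 0.240% of reads with CHX and 0.244%, 0.251% and 0.254% without it. These shares did not overlap between groups. In CPM the 21 genes summed to 2285, 2308 and 2385 in CHX replicates 1 to 3, against 2540, 2559 and 2627 in no CHX replicates 1 to 3, also without overlap.

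Of the 10 members placed in peroxisomes 6 fell and 0 rose (edgeR, 0 higher at an unadjusted p under 0.05, and 0 rose with DESeq2 or limma-voom), with a median of -0.38. The shares over all tested genes were 20.0% and 22.2%. The 26 tested members given no compartment, of which 8 rose and 8 fell, are outside this count. Among them are acs-7, whose enzyme activates ascaroside side chains and which did not pass, and the risers ech-8 and ech-9. Where the unplaced members act was not measured. The count of 0 rises thus describes the placed genes only and depends on the placing. Among the 7 acyl-CoA oxidases, which begin each peroxisomal round, 4 fell. The gene acox-1.1 (WBGene00008564, chromosome I, 12938555 to 12942224) had 69.3, 77.8 and 81.7 CPM with CHX, against 129, 134 and 98.2 CPM without it (-0.65, SE 0.136, edgeR adjusted p = 0.000917). For acox-1.4 the levels were 32.4, 29.9 and 33.0 CPM with CHX, against 61.5, 59.4 and 47.1 CPM without it (-0.81, edgeR adjusted p = 0.000529). In both the CHX libraries lay below all no CHX libraries, and no CHX replicate 3 was nearest to them.

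The gene acox-1.2 varied most among the no CHX libraries of any tested member, with a coefficient of variation of 67.8%. It had 4.47, 5.60 and 5.23 CPM with CHX, against 54.5, 38.9 and 8.98 CPM without it, a log2 fold change of -2.71 (95% interval -4.79 to -0.63, edgeR adjusted p = 0.0485). The call ended with limma-voom (adjusted p = 0.202), when low counts were not filtered (0.0764), when genes needed a mean CPM of at least 5 (0.0512), without CHX replicate 1, 2 or 3 (adjusted p = 0.145, 0.142 and 0.132) and without no CHX replicate 2 (adjusted p = 0.0976). Without no CHX replicate 3 it was far from the threshold (-3.22, edgeR adjusted p = 9.6e-09).

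For acox-1.6 there were 50.3, 47.3 and 59.1 CPM with CHX, against 76.7, 79.4 and 57.2 CPM without it (-0.44, edgeR adjusted p = 0.0295), and CHX replicate 3 lay above no CHX replicate 3. That call ended with DESeq2 (adjusted p = 0.0775) and without CHX replicate 1 (0.0789), CHX replicate 2 (0.107), no CHX replicate 1 (0.07) or no CHX replicate 2 (0.0854). The oxidase with the most reads, acox-1.5, had 116, 103.97 and 162 CPM with CHX, against 137, 139 and 81.4 CPM without it and did not pass (0.10, 95% interval -0.49 to 0.69). The gene acox-3 had 71.5, 74.7 and 82.7 CPM with CHX, against 86.9, 103 and 63.4 CPM without it and did not pass (-0.14), but fell when no CHX replicate 3 was left out (-0.36, edgeR adjusted p = 0.0411). The gene acox-1.3 did not pass either way (0.17 with all libraries and -0.08 without no CHX replicate 3).

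In all 7 oxidase genes no CHX replicate 3 was the lowest no CHX library, while over all tested genes this library was the lowest of its group in 35.2%. It was also the lowest in 9 of the 10 peroxisomal members, in 7 of 20 synthetases and in 4 of 13 dehydrogenases. The summed oxidase level was 354, 352 and 435 CPM in CHX replicates 1 to 3, against 555, 568 and 364 CPM in no CHX replicates 1 to 3. The groups overlapped because CHX replicate 3 lay above no CHX replicate 3. Without no CHX replicate 3 they stood apart, at 435 against 555 CPM. Without CHX replicate 3 they did so only narrowly, at 354 against 364 CPM. Intestinal markers summed to 3885 CPM in no CHX replicate 3, against 4744 and 4579 CPM in no CHX replicates 1 and 2, and their part in the oxidase levels was not tested. The genes acox-1.1 to acox-1.4 lie side by side on the plus strand of chromosome I, and whether reads of these relatives were shared is not given in the sources used here.

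**Figure D4:**
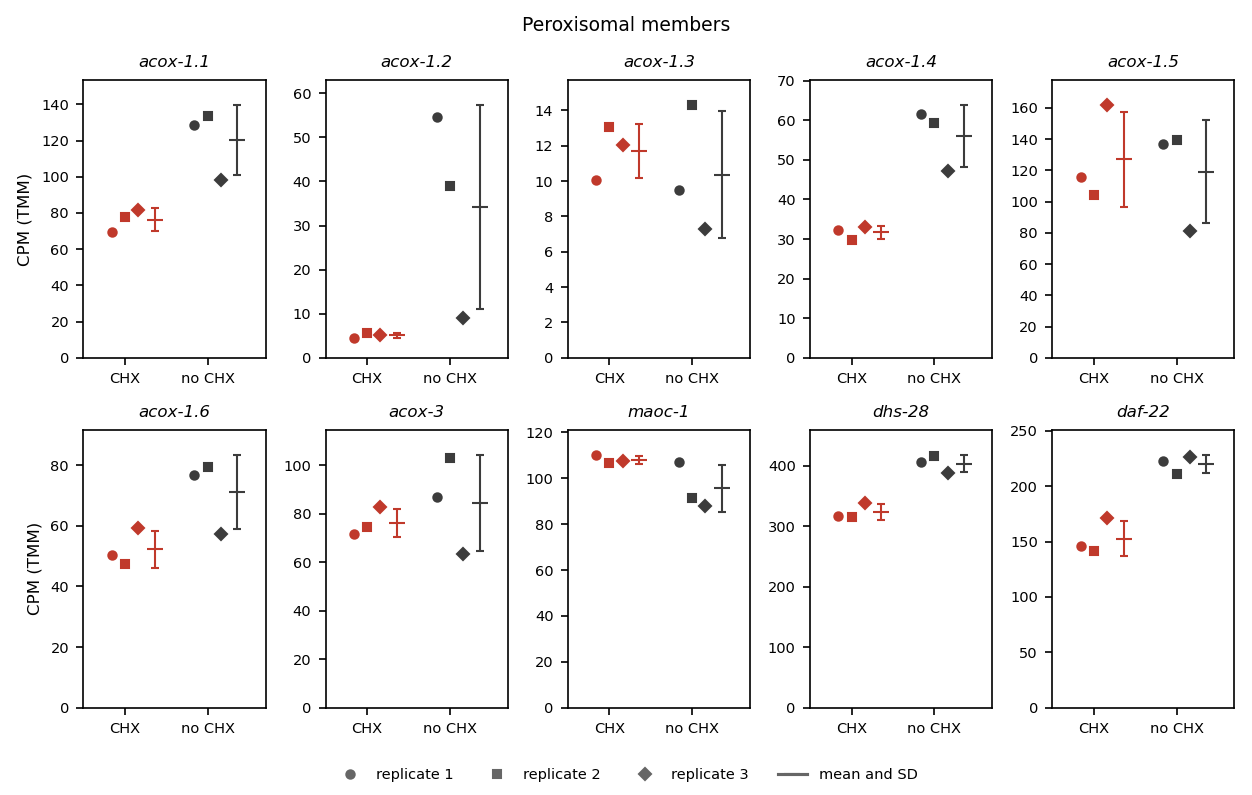
CPM of the 10 peroxisomal genes, with 1 point per library (circle, square and diamond for replicates 1 to 3), CHX in red left of no CHX in black, and bars for the mean and SD. The diamond of no CHX replicate 3 is the lowest black point in 9 panels, all but daf-22, and lies at 8.98 CPM for acox-1.2 below 54.5 and 38.9 CPM.

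After the oxidase, the hydratase MAOC-1, the hydroxyacyl-CoA dehydrogenase DHS-28 and the thiolase DAF-22 complete the round. The gene daf-22 (WBGene00013284, chromosome II, 12423514 to 12425694) had 146, 141 and 171 CPM with CHX, against 223, 211 and 227 CPM without it (-0.53, SE 0.108, edgeR adjusted p = 0.000777). The gene dhs-28 had 317, 316 and 339 CPM with CHX, against 406, 417 and 389 CPM without it (-0.32, edgeR adjusted p = 0.00949). Both fell by less than 1.5-fold, with no overlap. The gene maoc-1 had 110.1, 106 and 107 CPM with CHX, against 107, 91.5 and 88.1 CPM without it and did not pass (0.18, 95% interval -0.07 to 0.43), so a fall of the size in daf-22 lay outside its interval. By genomic span, introns included, dhs-28 overlaps gei-15 and maoc-1 overlaps E04F6.6 on the opposite strand. Overlap of the coding stretches was not examined and the use of strand in the counting is not stated, so reads may be shared. The gene gei-15 had 301 reads with CHX and 290 without it. For E04F6.6 there were 231 and 88, beside 573 and 486 on maoc-1, and the interval of maoc-1 does not cover such sharing.

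The machinery that builds peroxisomes gave few calls. Of 22 genes for peroxins, membrane transporters and other peroxisomal enzymes, 2 fell and 0 rose, with a median of -0.08. With edgeR 0 were higher at an unadjusted p under 0.05, and 0 rose with DESeq2 or limma-voom. Without no CHX replicate 3, 6 fell. Over all tested genes 20.0% fell and 22.2% rose, and the differences were not tested. In simulated data 26.9% of 1.5-fold changes and 74.6% of 2-fold changes were recovered. Small changes on this list may thus have been missed. The transporter gene pmp-5 had 159.8, 152 and 165 CPM with CHX, against 448, 392.1 and 353 CPM without it (-1.32, edgeR adjusted p = 4.7e-08). The peroxin gene prx-14 had 39.1, 35.5 and 32.5 CPM with CHX, against 48.2, 47.4 and 49.4 CPM without it (-0.44, edgeR adjusted p = 0.0263), a call that ended with DESeq2 (adjusted p = 0.11), without CHX replicate 2 (0.0651) and without CHX replicate 3 (0.112).

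Of 13 genes for transcriptional regulators of fat oxidation, 2 rose and 1 fell. Over all tested genes 22.2% rose and 20.0% fell, so neither direction was more frequent on this list. The gene nhr-49, whose receptor turns on acs-2 in fasting, had 98.3, 143 and 119.9 CPM with CHX, against 85.6, 93.7 and 84.2 CPM without it (0.45, edgeR adjusted p = 0.0134). The gene hlh-30, for the TFEB relative that drives lysosomal lipolysis, had 106, 126 and 111 CPM with CHX, against 88.8, 99.5 and 55.6 CPM without it (0.50, edgeR adjusted p = 0.0405). Neither rise was firm. The nhr-49 call ended with DESeq2 (adjusted p = 0.062), without CHX replicate 2 (0.0937) and without no CHX replicate 1 (0.055). The hlh-30 call ended with DESeq2 (adjusted p = 0.0644) and without CHX replicate 1 (0.0507), CHX replicate 2 (0.131), CHX replicate 3 (0.0759), no CHX replicate 1 (0.0621) or no CHX replicate 3 (0.153), where its value was 0.24. The nuclear receptor gene nhr-114 had 17.9, 23.04 and 22.5 CPM with CHX, against 45.0, 36.6 and 28.6 CPM without it (-0.79, edgeR adjusted p = 0.00497).

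The members lie on all 6 chromosomes, with 12 each on I, II and V, 9 on IV, 8 on III and 7 on X. Within 10 kb of each other lie 10 of them, in 4 places. The pair ech-9 and ech-8 rose together, and the pair acdh-10 and acdh-7, 88 bases apart on the minus strand of X, both had small falls. In the acox cluster on I 3 of 4 genes fell, and acdh-12 and maoc-1, 1460 bases apart on opposite strands of II, did not pass. By genomic span, introns included, another gene of the table overlaps 15 members, 10 of them called. The overlapping genes on the same strand as acdh-1 and acdh-2 had few reads, at 0.875% of those on acdh-1 for C55B7.3 and none in either group for ins-13.

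Libraries of a group differed about as much for the members as for other genes. The median coefficient of variation over the 58 tested members was 10.9% in CHX libraries and 13.3% in no CHX libraries, and it exceeded 30% for 4 members with CHX and 10 without it. On the log2 scale the median SD was 0.15 for members and 0.18 for all tested genes with CHX, and 0.19 for members and 0.20 for all tested genes without it. With CHX the most variable member was acdh-2, at 3 reads in all, and among the others cpt-5 (43.6%). Of the 38 called members, 31 were called under every alternative that tested them, and acdh-6, acdh-7, acdh-10, acox-1.2, acox-1.6, ech-5 and ech-8 were not.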

How the data were processed

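Ribosome footprints were measured in 6 libraries, 3 with CHX and 3 without. The authors deposited raw read counts per gene on WBcel235; per the submitters' processing notes DESeq2 was used, while the sources used here name no aligner or counter and do not state how strand, duplicates and multiply mapped reads were treated. Log2 fold changes and adjusted p-values were computed here from the deposited counts with edgeR 4.0.16 (R 4.3.3; TMM, filterByExpr with a minimum count of 10, group as the term, glmQLFit and glmQLFTest), over 10632 genes. The fit was tested on simulated data. Alternatives were DESeq2 1.42.0, limma-voom (limma 3.58.1), other scalings and filters, a replicate block, removal of the 100 most abundant genes, and each library left out in turn.

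Values per library are given for each called member and for the most-read member of each step, and for up to 3 rises and 3 falls with the smallest p of each pathway list. Other genes named were chosen after their values were seen. The members and lists were chosen with earlier results of these data known. RefSeq names came from the WBcel235 table. Protein and promoter sequences were not used here. The deposited length column equals end minus start and includes introns, so levels were not divided by length.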

Additional observations from a re-analysis of the deposited data

How the results depend on the processing

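No called gene named in the text changed direction under any of the 14 alternatives that tested it. Of the members that did not pass, acdh-11, acdh-12, acox-1.3, acox-1.5, acs-12 and cpt-6 changed sign when a library was left out, as acox-1.5 did from 0.10 with all libraries to -0.11 without CHX replicate 3 and -0.16 without no CHX replicate 3. Of the comparisons with single genes, 672 kept their side of the threshold and 41 lost it. The 7 members that lost it in some setting are acdh-6, acdh-7, acdh-10, acox-1.2, acox-1.6, ech-5 and ech-8. The median log2 fold change of the mitochondrial members was -0.62, but -0.45 without a filter on low counts and -0.44 without the 100 most abundant genes, where acdh-1 was not tested. Replicate numbers did not pair the libraries, since deviations of same-numbered libraries correlated at -0.105, -0.079 and -0.079 and no library correlated best with its own number. With replicate number as a block 11 members rose and 25 fell, and 3999 genes were called against 4487. The block ended the calls of acdh-7 (edgeR adjusted p = 0.0798), acdh-10 (0.0719) and acox-1.6 (0.0666). With single libraries left out, 9 to 11 members rose, 23 to 31 fell and 3840 to 4329 genes were called, and the median ran from -0.72 to -0.52 for mitochondrial and from -0.47 to -0.34 for peroxisomal members. DESeq2 called 9 rises and 24 falls among the members and 3343 genes in all. The median of all genes ranged from -0.01 to 0.05 over the alternatives. At 1601009 to 1901815 reads per library, 5 CPM is under 10 reads, so the least-read members rest on few reads.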
